A study of Mus musculus with 40 samples.

Results

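The 9 genes described here were listed for the handling of vitamin A in the mouse liver. They run from retinol transport (Rbp4) and ester storage (Lrat) to the making and breakdown of retinoic acid (Adh1, Rdh16, Dhrs3, Aldh1a1, Cyp26a1). The list also holds the carotenoid cleavage gene Bco1 and Aldh1a7, a paralog of Aldh1a1 whose part in making retinoic acid was not examined. The 9 were chosen by name out of 55359 gene identifiers, each name matched 1 identifier, and 9 of 9 passed the filter on low counts. Liver RNA was sequenced from 40 male C57BL/6 mice, 5 in each of 8 groups. All 40 were gavaged with sesame oil every 4 days for 28 days (7 gavages), and the labels give ages of 30 days at the start and 58 days at the end. The oil carried nothing else (the vehicle group) or the dioxin TCDD, whose 7 doses were 30, 10, 3, 1, 0.3, 0.1 and 0.03 μg/kg. TCDD binds AhR, the aryl hydrocarbon receptor, which as a transcription factor acts on dioxin response elements. Whole liver was extracted, so fewer cells of a type and less RNA per cell cannot be told apart.

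Dietary retinol reaches the liver, where stellate cells store most of the body's vitamin A as retinyl esters made by lecithin retinol acyltransferase, the product of Lrat. Hepatocytes return retinol to the blood bound to retinol binding protein 4, which travels with transthyretin. Retinol is oxidised to retinal and then to retinoic acid, the ligand of the RAR receptors, and CYP26 enzymes hydroxylate retinoic acid for disposal.

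Libraries held 15496128 to 20967093 counts in genes. The AhR targets Cyp1a1 and Cyp1a2 passed the test at each of the 7 doses, so no dosed group went against its label. Replicate 1 at 30 μg/kg stood apart from the other livers of its group: its score on the first principal component, which held 47.6% of the variance, was 81.7 against 129 to 147, and some values at 30 μg/kg are given without it too. All 6 hepatocyte markers examined (Alb, Apoa1, Apob, Trf, Cps1, Hnf4a) were counted in every group, so the label of liver was met.

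The 250 bases before 4 of the start sites are shown because they hold a repeat of the kind that retinoic acid receptors bind, an AhR core motif, and a pair of nearly matching ends before 2 paralogs. RefSeq promoters on build GRCm38.p6 matched 9 of the 9 genes with 13 starts. Searched on both strands were the dioxin response element core GCGTG and a direct repeat of AGGTCA or AGTTCA with 5 or 2 bases between its copies; the motifs did not overlap. Capitals mark a match (GCGTG reads CACGC on the strand shown for Lrat), and each run is written 5′ to 3′ along its gene.
Cyp26a1 (chr19:37697558-37697807, plus strand): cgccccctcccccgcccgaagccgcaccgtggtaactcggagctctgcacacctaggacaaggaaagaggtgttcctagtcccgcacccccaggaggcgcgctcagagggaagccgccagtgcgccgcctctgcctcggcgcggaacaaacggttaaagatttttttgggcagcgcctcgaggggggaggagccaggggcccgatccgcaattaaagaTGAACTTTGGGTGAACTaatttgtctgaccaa
Lrat (chr3:82903975-82904224, minus strand): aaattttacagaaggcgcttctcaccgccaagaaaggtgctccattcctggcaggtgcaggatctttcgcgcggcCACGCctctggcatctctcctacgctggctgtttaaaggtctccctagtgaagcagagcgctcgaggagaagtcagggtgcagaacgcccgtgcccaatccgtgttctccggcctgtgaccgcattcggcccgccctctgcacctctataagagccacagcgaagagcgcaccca
Aldh1a1 (chr19:20601718-20601967, plus strand): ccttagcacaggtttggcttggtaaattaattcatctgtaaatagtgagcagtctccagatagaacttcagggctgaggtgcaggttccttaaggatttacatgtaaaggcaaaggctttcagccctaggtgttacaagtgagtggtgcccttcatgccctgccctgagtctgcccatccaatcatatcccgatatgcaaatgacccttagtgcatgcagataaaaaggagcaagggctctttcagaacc
Aldh1a7 (chr19:20727557-20727806, minus strand): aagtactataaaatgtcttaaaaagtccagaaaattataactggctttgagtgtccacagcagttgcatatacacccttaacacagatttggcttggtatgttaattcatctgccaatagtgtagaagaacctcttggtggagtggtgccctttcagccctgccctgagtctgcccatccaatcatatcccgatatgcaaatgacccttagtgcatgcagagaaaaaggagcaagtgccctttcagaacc
The Cyp26a1 window held the repeat, beginning 32 bases before the start, and was 1 of 11 such windows among 32851 promoter windows of this length (0.0335%). The repeat with 2 bases between its copies was in none of the 13 windows and in 0.0365% of all. The core GCGTG was in 2 of the 13 windows, one for Lrat, 175 bases before its start, and one for a start of Rbp4, and in 28.2% of all windows. Aldh1a1 has 2 starts in the table. The window shown for it and that of Aldh1a7 had the same base at 94 of the last 100 positions, with 65 of them in 1 unbroken run, and at 129 of all 250, while the window of its other start matched at 30 of the last 100 and 63 of all 250. A match describes letters in a window and is not a site.

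Levels are given in CPM, gene counts brought to a common library size after TMM scaling, as mean ± SD over 5 mice, and a gene passed the test when the quasi-likelihood test of edgeR gave an adjusted p under 0.05 with a change of at least 1.5-fold. In vehicle livers, per kilobase of exon, Rbp4 was the highest of the 9 at 2516 CPM per kb, followed by Adh1 at 848, Aldh1a1 at 313 and Aldh1a7 at 133. Dhrs3 stood at 81.1, Rdh16 at 22.3, Cyp26a1 at 13.4, Bco1 at 2.44 and Lrat at 2.27 CPM per kb. The retinol carrier and the broad dehydrogenases thus lay far above the storage and carotenoid enzymes. Adh1 overlaps a gene on the opposite strand, and reads that it shares with that gene may be missing from its counts. Counted on each strand and summed, Adh1 had 1.43 times its unstranded counts, so its level is uncertain.

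From 0.03 to 3 μg/kg, none of the 9 genes passed the edgeR test. Few of the 15373 genes tested did so at the lowest doses, with shares of 0.0195% (0.03 μg/kg), 0.0976% (0.1 μg/kg), 0.468% (0.3 μg/kg), 2.78% (1 μg/kg) and 6.75% (3 μg/kg). DESeq2 gave the same count of 0 at these doses. The unadjusted p was under 0.05 for none of the 9 at 0.03, 0.1 and 0.3 μg/kg, for 2 at 1 μg/kg (Adh1 and Rdh16) and for 1 at 3 μg/kg (Aldh1a1). At 10 μg/kg, 3 of 9 passed, Bco1 and Rdh16 higher and Aldh1a1 lower, beside 21.8% of all genes (13.6% higher and 8.13% lower). In the 30 μg/kg group, 3 of 9 passed, Lrat and Bco1 higher and Dhrs3 lower, beside 42.1% of all genes (23.2% higher and 18.9% lower). Scaled by total counts alone, Lrat, Bco1 and Rdh16 passed as higher at 10 μg/kg and none as lower, and Lrat, Bco1 and Rbp4 as higher and Dhrs3 as lower at 30 μg/kg. Under that scaling 3736 of the 15373 genes tested passed in either direction at 10 μg/kg and 7961 at 30 μg/kg. The shares of the 9 were near those of all genes, and the genes that passed at 10 and at 30 μg/kg had only Bco1 in common. The median log2 fold change of the 9 was -0.12 at 30 μg/kg, against 0.029 over all genes tested.

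**Figure D1:**
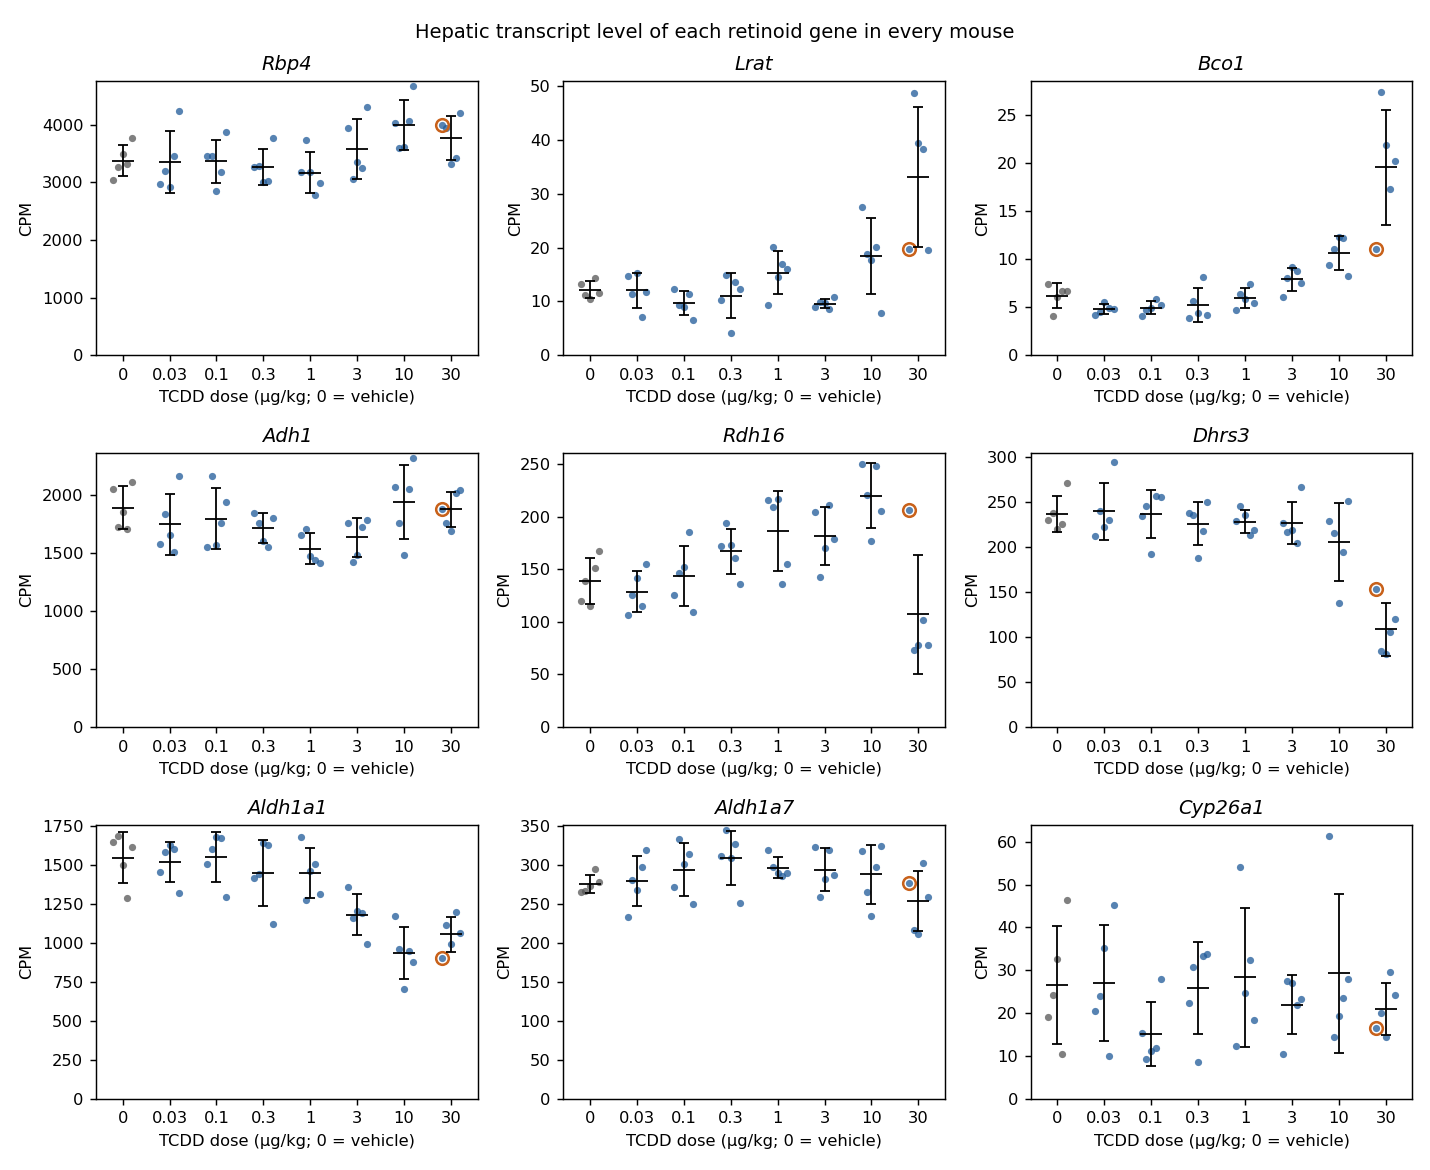
Level in CPM (y axis, from 0) of each of the 9 genes in every mouse against TCDD dose in μg/kg (x axis). Grey points are vehicle mice, blue points TCDD mice, the ringed point is replicate 1 at 30 μg/kg, and black bars are the mean ± SD of 5 mice. Lrat and Bco1 are highest at 30 μg/kg, Rdh16 at 10 μg/kg, and Dhrs3 is lowest at 30 μg/kg.

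Rbp4 encodes the blood carrier of retinol, and Ttr the transthyretin that binds it in plasma. Rbp4 did not pass at any dose: it held 3379 ± 275 CPM in vehicle, 3995 ± 436 CPM at 10 μg/kg (log2 fold change 0.24 ± 0.12 SE, edgeR adjusted p = 0.109) and 3776 ± 383 CPM at 30 μg/kg (log2 fold change 0.16 ± 0.12 SE, edgeR adjusted p = 0.244). Scaled by total counts alone it passed at 30 μg/kg (log2 fold change 0.65, edgeR adjusted p = 1.96e-08). Ttr fell from 1 μg/kg upward, from 8537 ± 804 CPM in vehicle to 5367 ± 407 CPM at 1 μg/kg and 2933 ± 1023 CPM at 30 μg/kg (log2 fold change -1.54 ± 0.17 SE, edgeR adjusted p = 3.88e-10). The ratio of Rbp4 to Ttr within a library had a higher mean at each dose than at the one before. It was 0.356, 0.431, 0.418, 0.396 and 0.385 in vehicle, 0.530, 0.490, 0.520, 0.480 and 0.522 at 0.3 μg/kg, 0.549, 0.645, 0.653, 0.533 and 0.576 at 1 μg/kg and 0.674, 0.687, 0.713, 0.607 and 0.656 at 3 μg/kg. All 5 livers lay above all vehicle livers from 0.3 μg/kg, a dose at which neither gene alone passed. At 10 μg/kg the ratio was 0.682, 0.746, 0.962, 0.787 and 0.698, and at 30 μg/kg 0.860, 1.53, 1.66, 1.41 and 1.39, with replicate 1 the lowest. The ratio was 1.28-fold higher at 0.3 μg/kg, 1.49-fold at 1 μg/kg, 1.68-fold at 3 μg/kg, 1.94-fold at 10 μg/kg and 3.38-fold at 30 μg/kg. Each of these 5 doses gave the smallest p that the exact 2-sided permutation test allows (0.00794, adjusted p = 0.0111 over the 7 doses), and 0.03 and 0.1 μg/kg did not pass (exact permutation test, adjusted p = 0.270 and 0.0926).

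Lrat, whose enzyme makes the stored ester, increased 2.73-fold at 30 μg/kg (log2 fold change 1.45 ± 0.28 SE, edgeR adjusted p = 2.56e-05). The 5 vehicle livers held 13.2, 11.3, 10.4, 14.3 and 11.6 CPM and the 5 livers at 30 μg/kg 19.8, 48.8, 39.5, 38.4 and 19.5 CPM. All 5 lay above every vehicle liver, but they fell into a group of 3 at 38.4 CPM and above and a pair below 20 CPM, replicate 1 being one of the pair. At 10 μg/kg the livers held 27.6, 18.8, 17.6, 20.1 and 7.84 CPM, with 4 above and 1 below the vehicle range, and the difference did not pass the test (log2 fold change 0.60 ± 0.27 SE, edgeR adjusted p = 0.0940). It passed without replicate 5, the liver below the vehicle range (log2 fold change 0.79, edgeR adjusted p = 0.0200). That liver is singled out by its value, and the other 9 tests that left out 1 library did not pass. At 3 μg/kg Lrat was at its lowest mean, 9.61 ± 0.901 CPM, and the step from 3 to 10 μg/kg passed (1.92-fold, edgeR adjusted p = 0.0248, beside 6.77% of all genes), as did that from 10 to 30 μg/kg (1.80-fold, edgeR adjusted p = 0.0136, beside 21.1% of all genes). Without replicate 1 the change at 30 μg/kg was 1.58 on the log2 scale.

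Some markers of stellate cells, the cells that store retinyl esters, were also higher at 30 μg/kg. Of 11 markers of quiescent stellate cells, 5 were higher at 30 μg/kg (Reln, Hgf, Pdgfrb, Dcn and Cygb), 1 was lower (Ecm1) and the other 5 did not pass, beside 23.2% of all genes higher and 18.9% lower; without replicate 1, 7 passed in either direction. Their summed level was 361 to 479 CPM in vehicle and 575 to 896 CPM at 30 μg/kg, and none was at 0. Of the 7 genes of activated stellate cells and myofibroblasts, 6 were tested and 6 of them rose (such as Col1a1, Timp1 and Acta2), with a summed level of 50.7 to 136 CPM in vehicle and 380.3 to 959 CPM at 30 μg/kg. The gene not tested, Tagln, had 0 to 11 unstranded counts per library. Counted on each strand and summed, Tagln had 137.7 times its unstranded counts, so its level is uncertain and nearly absent from the sum. Over the lower doses the mean of the quiescent marker sum was 415 CPM in vehicle, 398 CPM at 1 μg/kg and 451 CPM at 3 μg/kg. Lrat averaged 12.2, 15.3 and 9.61 CPM in these groups, and did not pass against vehicle at 1 or 3 μg/kg. Whether the marker sum follows Lrat was not tested. At 3 and 10 μg/kg, the doses between which Lrat stepped up, the quiescent markers summed to 403 to 557 CPM and 528 to 621 CPM. Within a library, the ratio of Lrat to the geometric mean of the quiescent markers was 0.617, 0.526, 0.584, 0.800 and 0.670 in vehicle and 0.740, 1.41, 1.14, 1.31 and 0.687 at 30 μg/kg. This ratio was 1.60-fold higher at 30 μg/kg, with 3 of 5 livers above all vehicle livers, and missed the threshold once adjusted over the 7 doses (exact 2-sided permutation test, p = 0.0317, adjusted p = 0.111). The part of the cell types in the change of Lrat was not tested.

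Bco1 encodes the oxygenase that cleaves β-carotene into retinal, the route by which plant carotenoids become vitamin A. It was the only one of the 9 to pass at both high doses. The vehicle livers held 7.46, 4.04, 6.08, 6.72 and 6.66 CPM, those at 10 μg/kg 9.41, 11.0, 12.4, 12.2 and 8.28 CPM and those at 30 μg/kg 11.1, 27.4, 21.9, 17.3 and 20.2 CPM. All livers at both doses lay above all vehicle livers. The increase was 1.72-fold at 10 μg/kg (log2 fold change 0.78 ± 0.19 SE, edgeR adjusted p = 0.00176) and 3.16-fold at 30 μg/kg (log2 fold change 1.66 ± 0.19 SE, edgeR adjusted p = 3.05e-09). The step from 10 to 30 μg/kg also passed (1.84-fold, edgeR adjusted p = 3.79e-04). Replicate 1 was the lowest liver at 30 μg/kg, at 11.1 CPM, and without it the change was 1.80 on the log2 scale. Bco2, the mitochondrial oxygenase that cleaves carotenoids off centre, went the other way, from 20.8 ± 2.59 CPM in vehicle to 3.77 ± 3.05 CPM at 30 μg/kg (log2 fold change -2.48 ± 0.27 SE, edgeR adjusted p = 5.38e-10). Bco2 shares reads with a gene on the opposite strand, so its level is uncertain.

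Rdh16 encodes a microsomal retinol dehydrogenase, and its level rose and then fell with dose. The vehicle livers held 120.2, 139, 115, 152 and 168 CPM. At 1 μg/kg the livers held 216, 209, 218, 136 and 155 CPM, 3 of 5 above the vehicle range, and at 10 μg/kg 249.99, 221, 177, 248 and 206 CPM, 5 of 5 above it. At 30 μg/kg replicate 1 held 207 CPM, above all vehicle livers, and the other 4 held 72.8, 77.6, 102 and 78.4 CPM, below all of them. Rdh16 was 1.59-fold higher at 10 μg/kg (log2 fold change 0.67 ± 0.20 SE, edgeR adjusted p = 0.00801). At 30 μg/kg the change did not pass with all 5 livers (log2 fold change -0.37 ± 0.20 SE, edgeR adjusted p = 0.11; 0.10 under total counts alone) and passed without replicate 1 (log2 fold change -0.75, edgeR adjusted p = 9.28e-05). The drop from 10 to 30 μg/kg passed with all livers (2.05-fold lower, edgeR adjusted p = 8.55e-05) and without replicate 1 (log2 change -1.42, edgeR adjusted p = 2.82e-09). Of the read-length windows in its longest transcript, 7.91% also occur in Rdh9, Rdh16f1 or the pseudogene Rdh18-ps, so part of its reads could be lost or shared. Its paralog Rdh16f2 held 128 ± 19.2 CPM in vehicle, 239 ± 40.3 CPM at 10 μg/kg and 77.1 ± 101 CPM at 30 μg/kg, and did not pass at either dose (log2 fold change 0.91 and -0.73, edgeR adjusted p = 0.0975 and 0.139), though like Rdh16 it passed at 30 μg/kg without replicate 1 (log2 fold change -1.90, edgeR adjusted p = 4.74e-06).

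Dhrs3 encodes the reductase that turns retinal back into retinol, which holds retinoic acid formation in check. Its single values ranged from 188 to 294 CPM over vehicle and all doses up to 3 μg/kg. Livers at 30 μg/kg held 153, 84.7, 80.9, 106 and 119.8 CPM against 230.0, 238, 221, 226 and 272 CPM in vehicle, with no overlap. Dhrs3 was 2.18-fold lower (log2 fold change -1.12 ± 0.14 SE, edgeR adjusted p = 8.35e-09), and the fall from 10 to 30 μg/kg passed too (1.89-fold lower, edgeR adjusted p = 2.42e-06). Replicate 1 was again the liver nearest to vehicle, and without it the log2 fold change was -1.28. At 10 μg/kg the values spread more widely, 229, 215, 137, 194 and 252 CPM, and did not pass (log2 fold change -0.21 ± 0.14 SE, edgeR adjusted p = 0.263).

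Hepatocyte markers were examined in the same way. Of 6, 4 were lower at 30 μg/kg (Alb, Apoa1, Apob and Cps1). At this dose 23.2% of all genes tested were higher and 18.9% lower, which also stands beside the counts of the next lists. The 6 hepatocyte markers summed to 106528 to 130154 CPM in vehicle and 35818 to 74325 CPM at 30 μg/kg. All 6 macrophage markers rose, from 154 to 215 CPM in sum in vehicle to 524 to 1359 CPM; 3 of 5 endothelial markers rose (2 passed without replicate 1), and of 4 cholangiocyte markers 3 rose and 1 fell. Summed endothelial levels were 116 to 159.6 CPM in vehicle and 191 to 254 CPM at 30 μg/kg, and summed cholangiocyte levels 14.4 to 19.3 CPM and 15.9 to 95.8 CPM. The mean cholangiocyte sum was 15.6 CPM in vehicle and 34.0 CPM at 30 μg/kg, and that rise rests largely on the liver at 95.8 CPM. No marker of these 4 lists was at 0 in either group. Their part in the changes of the 9 genes was not tested.

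**Figure D2:**
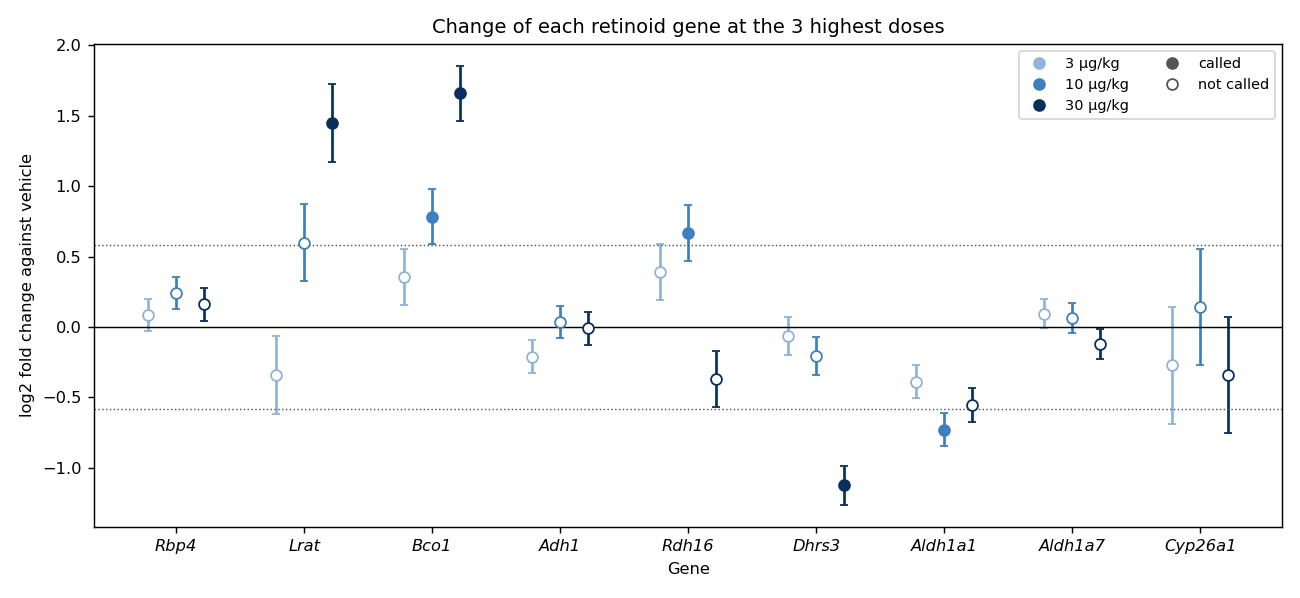
Log2 fold change against vehicle (y axis) of the 9 genes (x axis) at 3, 10 and 30 μg/kg TCDD, with bars of ± 1 SE from the edgeR fit over 40 libraries. Filled points passed the test, open points did not, and dotted lines mark a fold of 1.5. Bco1 rises at both 10 and 30 μg/kg, Rdh16 is filled at 10 μg/kg alone, and Aldh1a1 at 30 μg/kg lies just inside the line.

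Aldh1a1 encodes the main hepatic retinaldehyde dehydrogenase, which makes retinoic acid from retinal, and Aldh1a7 its mouse paralog. Aldh1a1 fell at 10 μg/kg, while Aldh1a7 did not pass at any dose. The vehicle livers held 1648, 1681, 1499, 1285 and 1616 CPM of Aldh1a1. Livers at 3 μg/kg held 1358, 1161, 1204, 1188 and 992 CPM, at 10 μg/kg 1169, 959.8, 706, 948 and 879.6 CPM and at 30 μg/kg 905, 1114, 989, 1198 and 1059.8 CPM. At 3 μg/kg 4 of 5 livers lay below all vehicle livers, and at 10 and 30 μg/kg 5 of 5. Aldh1a1 was 1.66-fold lower at 10 μg/kg (log2 fold change -0.73 ± 0.12 SE, edgeR adjusted p = 8.05e-06), which passed. At 3 μg/kg (1.31-fold lower, log2 fold change -0.39 ± 0.12 SE, edgeR adjusted p = 0.0287) and 30 μg/kg (1.47-fold lower, log2 fold change -0.55 ± 0.12 SE, edgeR adjusted p = 1.43e-04) the adjusted p was under 0.05 but the fold was under 1.5. Replicate 1 was the lowest liver at 30 μg/kg, and without it the log2 fold change was -0.51 (edgeR adjusted p = 5.65e-04). Under total counts alone the change was -0.52 at 10 and -0.060 at 30 μg/kg on the log2 scale, below the fold of 1.5 at both. The lowest mean was at 10 μg/kg, and the step from 10 to 30 μg/kg did not pass (edgeR adjusted p = 0.279).

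Aldh1a7 held 276 ± 12.1 CPM in vehicle and 254 ± 38.7 CPM at 30 μg/kg (log2 fold change -0.12 ± 0.11 SE, edgeR adjusted p = 0.341; 0.36 under total counts alone), with group means of up to 309 CPM, at 0.3 μg/kg. The ratio of Aldh1a7 to Aldh1a1 within a library, which does not depend on how libraries are scaled, was 0.161, 0.159, 0.182, 0.230 and 0.173 in vehicle, 0.272, 0.276, 0.333, 0.314 and 0.370 at 10 μg/kg and 0.306, 0.195, 0.215, 0.253 and 0.244 at 30 μg/kg. It was 1.74-fold higher at 10 μg/kg, with 5 of 5 livers above all vehicle livers, 1.39-fold at 3 μg/kg and 1.34-fold at 30 μg/kg. The exact 2-sided permutation test gave p = 0.0159, 0.00794 and 0.0238 at 3, 10 and 30 μg/kg, where 0.00794 is the smallest that 5 against 5 mice allow, and an adjusted p of 0.0556 at each of these doses over the 7 tested, so none passed. At each dose from 0.3 μg/kg upward, 9 of the 10 tests that left out 1 library did not pass. The other, without replicate 4 of vehicle, passed (exact permutation test, adjusted p = 0.0222 at each), with a log2 difference of 0.89 at 10 μg/kg. That liver had the highest ratio in vehicle (0.230), so leaving it out favours a pass and adds no support to a change. No stretch of a read length (150 bases) in the longest transcript of either gene was found in a transcript of another gene.

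**Figure D3:**
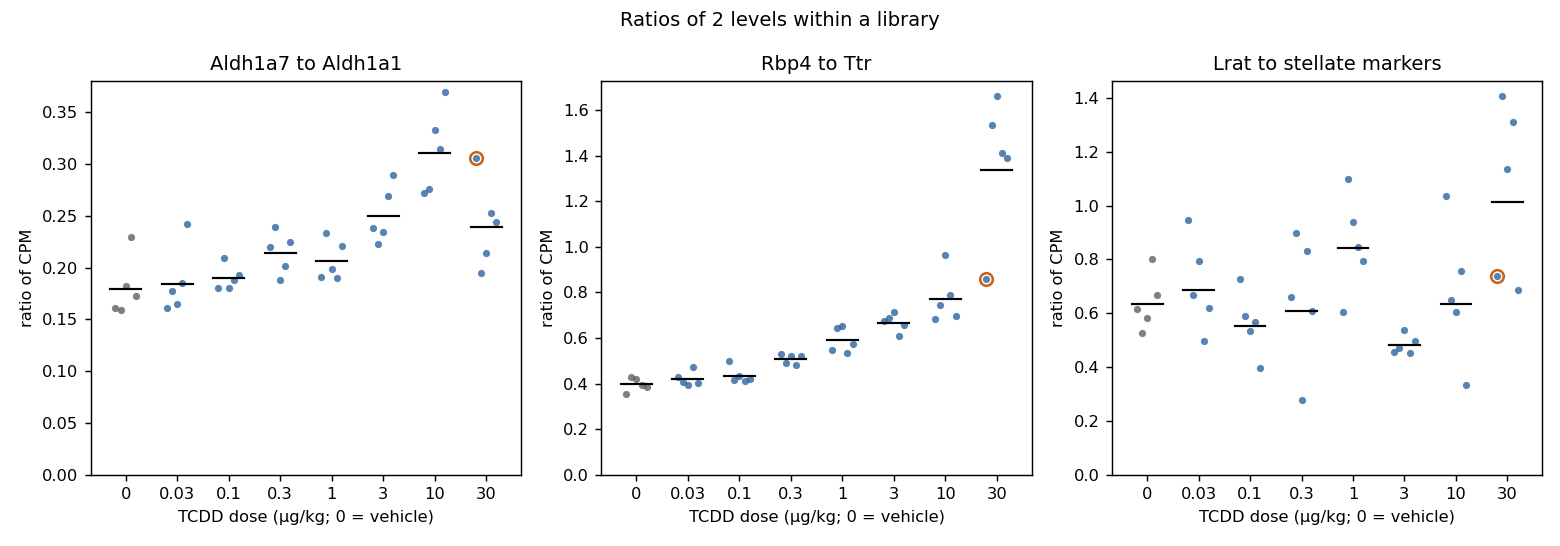
Ratio of CPM within a library (y axis, from 0) against TCDD dose in μg/kg (x axis) for Aldh1a7 to Aldh1a1, Rbp4 to Ttr, and Lrat to the geometric mean of the quiescent stellate markers. Points are mice (grey for vehicle, ringed for replicate 1 at 30 μg/kg) and bars the geometric mean of 5. The Rbp4 to Ttr ratio climbs from a mean of 0.396 in vehicle to 1.34 at 30 μg/kg, and the Aldh1a7 to Aldh1a1 ratio peaks at 0.311 at 10 μg/kg.

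Cyp26a1, the inducible hydroxylase that clears retinoic acid, and Adh1, the cytosolic alcohol dehydrogenase that oxidises retinol, did not pass at any dose. Cyp26a1 varied more between mice of one dose than any other of the 9 in vehicle: those livers held 19.2, 24.1, 32.6, 10.4 and 46.5 CPM, and at 30 μg/kg 16.4, 20.0, 14.4, 29.7 and 24.2 CPM. Over the 8 groups its coefficient of variation ran from 29.3% to 63.5%, and the groups overlapped throughout. Its log2 fold change at 30 μg/kg was -0.34 with an SE of 0.41 (edgeR adjusted p = 0.505), and 0.16 under total counts alone. Adh1 held 1894 ± 185 CPM in vehicle and 1879 ± 153 CPM at 30 μg/kg (log2 fold change -0.011 ± 0.12 SE, edgeR adjusted p = 0.947), a value that was 0.48 under total counts alone. At 1 μg/kg its livers held 1656, 1708, 1481, 1441 and 1419 CPM, all below the vehicle livers, whose lowest was 1714 CPM, but this did not pass (log2 fold change -0.30 ± 0.12 SE, edgeR adjusted p = 0.168).

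Over the ordered dose steps, 0 for vehicle to 7 for 30 μg/kg, 5 of the 9 had a slope with an edgeR adjusted p under 0.05, beside 57.7% of all genes (31.5% upward and 26.1% downward). Slopes per step on the log2 scale were 0.24 for Bco1, 0.18 for Lrat and 0.031 for Rbp4, upward, and -0.10 for Aldh1a1 and -0.099 for Dhrs3, downward. The slope of Rbp4 lost its call without replicate 1 at 30 μg/kg (edgeR adjusted p = 0.0704), which left 4. Without the 30 μg/kg group, 3 had one, namely Bco1, Aldh1a1 and Rdh16, and Lrat, Rbp4 and Dhrs3 did not. The share of all genes with a slope is not given here for the fits that left out mice, so these counts have no background. With the 8 group means of each gene placed in order, 3 of 63 pairs of neighbours passed the test: 10 and 30 μg/kg for Lrat, Bco1 and Dhrs3. Between these 2 doses 21.1% of all genes tested passed. The other 60 pairs did not pass.

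The sample titles number the mice, and the numbers fall into 2 runs, up to 27 (19 libraries) and from 28 (21 libraries), each with all 8 groups. Fitted in each run alone, the log2 fold changes at 30 μg/kg were 1.54 and 1.30 for Lrat, 1.70 and 1.54 for Bco1 and -0.96 and -1.31 for Dhrs3, and all 6 passed the edgeR test. For Rdh16 at 30 μg/kg they were 0.15 and -0.92, opposite in sign, the first run holding replicates 1 and 2. At 10 μg/kg they were -0.61 and -0.78 for Aldh1a1, which passed in both, 0.78 and 0.71 for Bco1, which passed in neither (edgeR adjusted p = 0.122 and 0.0766), and 0.90 and 0.40 for Rdh16, which passed in the first run alone. The Rbp4 to Ttr ratio was higher in each run, by 1.52 and 1.92 on the log2 scale at 30 μg/kg.

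Mice of the same dose also differed together in some of these genes. This was examined after the values had been seen, on log2 CPM centred on the mean of each dose over 40 mice, for all 36 pairs, with a permutation test within dose (100000 permutations) adjusted over the 36. Pearson's r passed for 6 pairs, all positive. Pairs of other genes were not examined, so the share of pairs that would pass among them is not known. Rdh16 and Aldh1a7 had r = 0.628 (permutation p = 9.00e-05, adjusted p = 8.10e-04) and Spearman's rho = 0.659 (permutation p = 6.00e-05, adjusted p = 7.20e-04). It stayed at 0.654 without the 2 mice farthest from the median of Rdh16, at 0.697 without replicate 1 at 30 μg/kg, and was 0.752 and 0.699 within the 2 runs of title numbers. Rbp4, Adh1 and Dhrs3 also varied together, and this was unequal in the runs: r of Rbp4 and Dhrs3 was 0.645 (permutation p = 1.00e-05, adjusted p = 3.60e-04; Spearman's rho 0.677, permutation p = 3.00e-05, adjusted p = 5.40e-04), 0.591 without the 2 mice farthest in Rbp4, but 0.183 in the first run and 0.838 in the second, so it did not hold within both. The smallest p that these permutations can give is 1e-05. For Rbp4 and Adh1 r was 0.655 (permutation p = 5.00e-05, adjusted p = 7.20e-04; Spearman's rho 0.626, permutation p = 1.80e-04, adjusted p = 0.00162), 0.593 without the 2 farthest, and 0.476 and 0.751 within runs. For Adh1 and Dhrs3 r was 0.660 (permutation p = 6.00e-05, adjusted p = 7.20e-04; Spearman's rho 0.689, permutation p = 2.00e-05, adjusted p = 5.40e-04), 0.550 without the 2 farthest, and 0.289 and 0.884 within runs, which also did not hold within both.

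The other 2 pairs were weaker. Adh1 and Aldh1a7 had r = 0.525 (permutation p = 0.00279, adjusted p = 0.0201; Spearman's rho 0.473, permutation p = 0.00706, adjusted p = 0.0508), 0.414 without the 2 farthest, and 0.759 and 0.354 within runs. Rdh16 and Dhrs3 had r = 0.528 (permutation p = 0.00715, adjusted p = 0.0429; Spearman's rho 0.396, permutation p = 0.0194, adjusted p = 0.107), with 0.945 and 0.108 within runs; r was 0.315 without the 2 mice farthest in Rdh16, so the relation rests on them. Lrat and Cyp26a1 failed the correction (r = 0.385, permutation p = 0.0319, adjusted p = 0.0883; Spearman's rho 0.332, permutation p = 0.0517, adjusted p = 0.143). The levels of a pair come from the same library and share its depth and scaling.

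**Figure D4:**
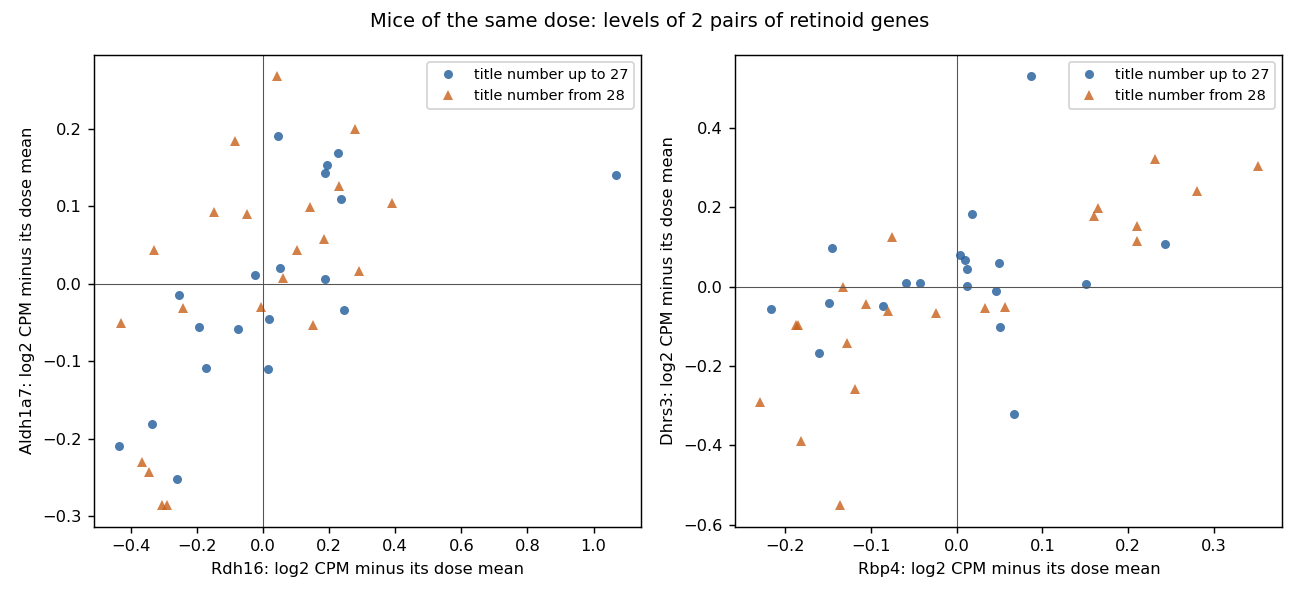
Log2 CPM minus the mean of its dose group, for Rdh16 (x axis) against Aldh1a7 (y axis) and for Rbp4 against Dhrs3, in 40 mice. Blue circles are mice with title numbers up to 27 and orange triangles from 28. Rdh16 and Aldh1a7 rise together in both runs (r = 0.752 and 0.699), Rbp4 and Dhrs3 mainly in the second (r = 0.183 and 0.838).

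Around these 9 genes, 42 others of retinoid uptake, storage, oxidation, breakdown and reception were listed, of which 34 passed the filter on low counts. At 30 μg/kg, 4 were higher and 18 lower, beside 23.2% and 18.9% of all genes, with a median log2 fold change of -0.75 against 0.029 over all genes. At 10 μg/kg, 2 were higher and 7 lower, beside 13.6% and 8.13%. Scaled by total counts alone, which moves the median of all genes up by 0.49 at 30 and 0.21 at 10 μg/kg on the log2 scale, the counts were 10 higher and 14 lower at 30 and 4 higher and 4 lower at 10 μg/kg. Under that scaling 7961 of all 15373 genes tested passed in either direction at 30 μg/kg and 3736 at 10 μg/kg. Without replicate 1 at 30 μg/kg the pathway counts were 5 higher and 18 lower.

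Of the uptake and transport genes, Stra6l, the hepatic receptor for retinol bound to RBP4, went from 337 ± 34.3 CPM in vehicle to 193 ± 5.81 CPM at 10 μg/kg and 75.9 ± 52.4 CPM at 30 μg/kg (log2 fold change -2.15 ± 0.21 SE, edgeR adjusted p = 2.52e-11). Of the genes of ester storage and release, Lpl, which frees fatty acids and retinyl esters from lipoproteins, rose from 0.3 μg/kg (log2 fold change 1.05 ± 0.25 SE, edgeR adjusted p = 0.0289), where 1 of 34 passed, and reached 5.97-fold at 30 μg/kg. Pnpla3, a retinyl ester hydrolase of stellate cells, fell at 3 and 30 μg/kg (log2 fold change -2.94 ± 0.64 SE, edgeR adjusted p = 1.69e-04) from a low level of 2.58 ± 3.18 CPM, and Lipe, the hormone-sensitive lipase, at 30 μg/kg. Counted on each strand and summed, Lipe had 1.76 times its unstranded counts, which were 98 to 280 per library, so its level is uncertain. Under total counts alone, Lipe, Adh5, Rdh9 and Aldh8a1 no longer passed at 30 μg/kg, and without replicate 1 Rdh9 did not.

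Among retinol and retinal dehydrogenases and reductases outside the 9, 9 of 14 tested fell at 30 μg/kg and 0 rose, beside 18.9% and 23.2% of all genes. Under total counts alone 7 fell and 3 rose (Rdh10, Rdh13 and Retsat), beside 7961 of all 15373 genes tested that passed in either direction. The level of Retsat is uncertain, as its 2 strands counted apart summed to 1.46 times its unstranded counts. Rdh7 went from 1286 ± 112 CPM to 780.4 ± 142 CPM at 10 and 345 ± 136 CPM at 30 μg/kg (log2 fold change -1.90 ± 0.16 SE, edgeR adjusted p = 8.08e-13). Adh4 fell 2.38-fold at 10 and 7.59-fold at 30 μg/kg, and Adh7 2.90-fold and 3.40-fold. Reads that Adh7 shares with an opposite-strand gene may be missing from its counts. Counted on each strand and summed, it had 1.33 times its unstranded counts, so its level is uncertain. Adh5, Rdh5, Rdh9, Rdh11, Dhrs4 and Dhrs9 passed at 30 μg/kg alone. Of the 9 genes that act in this step, Dhrs3 passed as lower at 30 μg/kg, Rdh16 passed as lower without replicate 1 but not with it, and Adh1 did not pass. Of the retinal oxidation genes, Aldh8a1 and Aox3 fell at 30 μg/kg (log2 fold change -1.004 ± 0.11 SE, edgeR adjusted p = 1.17e-09 for Aldh8a1), and Aldh1a2 rose from 0.150 ± 0.146 to 1.37 ± 0.834 CPM, a low level throughout.

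Of the breakdown genes, Cyp26b1 rose while Cyp26a1 did not pass: it held 3.45 ± 1.83 CPM in vehicle, 1.24 ± 0.511 CPM at 3 μg/kg, 13.8 ± 14.8 CPM at 10 μg/kg and 23.2 ± 11.0 CPM at 30 μg/kg (log2 fold change 2.76 ± 0.76 SE, edgeR adjusted p = 0.00223). Whether the 2 genes differ in their change was not tested. Of 6 retinoid receptors, Rarg rose (log2 fold change 0.99 ± 0.18 SE, edgeR adjusted p = 1.39e-05) and Rara (log2 fold change -1.22 ± 0.16 SE, edgeR adjusted p = 2.20e-08) and Rxrg (log2 fold change -1.82 ± 0.31 SE, edgeR adjusted p = 5.27e-06) fell at 30 μg/kg. Rara also fell at 10 μg/kg, and Rarb, Rxra and Rxrb did not pass. Rarb had 6 to 44 unstranded counts per library and 3.58 times as many with the strands counted apart and summed, so its level is uncertain.

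**Figure D5:**
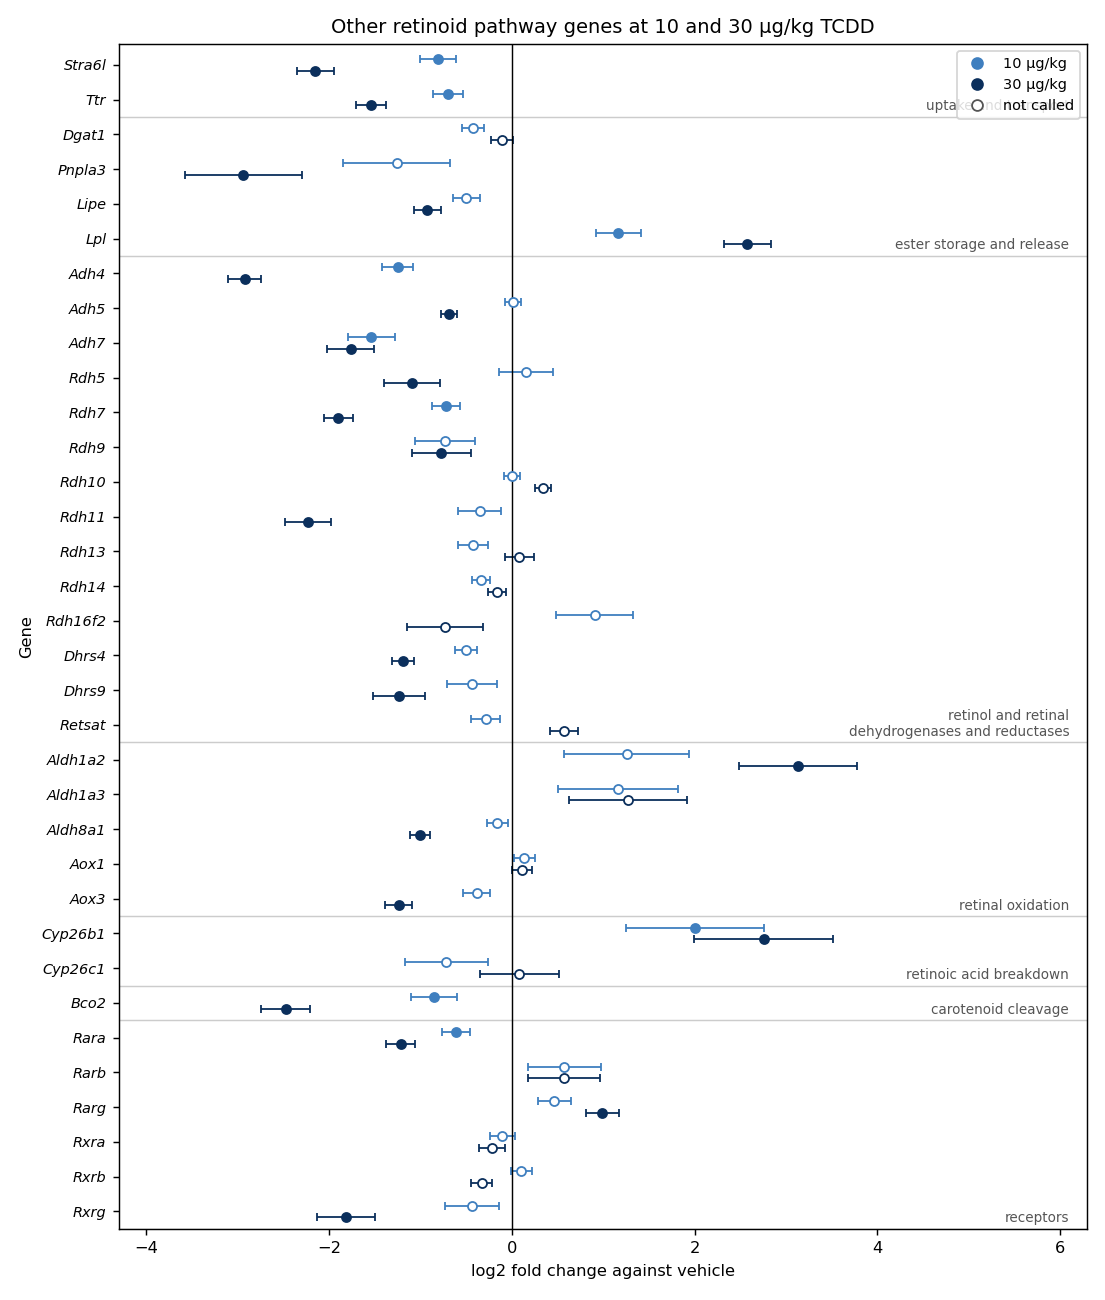
Log2 fold change against vehicle (x axis) at 10 (light blue) and 30 μg/kg TCDD (dark blue) for the 34 tested retinoid pathway genes outside the 9 (y axis), grouped by role, with bars of ± 1 SE. Filled points passed the test. At 30 μg/kg 18 filled points lie left of 0 and 4 right of it.

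For the 3 genes that passed at 30 μg/kg, the genes with the most similar dose pattern were sought by the root mean square difference between centred dose means of log2 CPM over the 8 groups, among 9307 genes with a mean of at least 100 counts. Nearest to Lrat were Camk2d and Rbms1, at 0.157 and 0.159, where the median gene lay at 0.576. Nearest to Bco1 were Mcam and Col5a1, at 0.0986 and 0.115, where the median gene lay at 0.674. Nearest to Dhrs3 were Serpind1 and Retreg2, at 0.0338 and 0.0394, where the median gene lay at 0.380. Their own log2 fold changes at 30 μg/kg were 1.08, 1.62, 1.89, 1.78, -1.08 and -1.01, in the order named.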

How the data were processed

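Livers of 40 male mice were sequenced as 150-base paired-end reads. The authors deposited, for each library, counts of reads per gene with an unstranded column and a column for each strand; the submitters' processing notes name FastQC 0.11.7, Trimmomatic 0.39 and STAR 2.7.3a, and both GRCm39 and mm10, without a role. Unmapped, multimapped and unassigned reads were left out of library sizes, which left 71.3% to 80.8% of reads in genes. Reads fell on both strands alike (50.0% to 50.3% on the first), so the unstranded column was used. The authors also deposited a log2 normalized table, whose method was not given in the sources used here; it served only as an alternative with limma 3.58.1.

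Unstranded counts were filtered with filterByExpr (15373 genes kept), scaled by TMM and tested with the quasi-likelihood test of edgeR 4.0.16 in R 4.3.3, with 1 mean per dose over 40 libraries and Benjamini-Hochberg adjustment over all genes tested within a comparison. Log2 CPM used a prior count of 2. Within-library log2 ratios were compared by exact 2-sided permutation tests. The script was tested on simulated counts. The 9 genes and the pathway and marker lists were chosen with earlier results of these data known. Named genes were the 9, the pathway genes that passed at 30 μg/kg, Rdh16f2 and other non-passing genes for contrast after their values were seen, and the 2 genes most like each of the 9 that passed at 30 μg/kg. A further pathway gene is not reported here. Markers were Reln, Hgf, Ngfr, Des, Pdgfrb, Ecm1, Colec10, Colec11, Cygb, Dcn and Rgs5 (quiescent stellate), Acta2, Tagln, Col1a1, Col1a2, Col3a1, Timp1 and Lox (activated stellate), Adgre1, Csf1r, Cd68, Clec4f, Cd5l and Lyz2 (macrophage), Pecam1, Stab2, Clec4g, Kdr and Lyve1 (endothelial) and Krt19, Krt7, Epcam and Sox9 (cholangiocyte). Exon lengths came from GENCODE M21 and promoters from RefSeq. Alternatives were DESeq2 1.42.0, other scalings, filters and thresholds, covariates and runs from title numbers, the strand columns summed, and leaving out each library.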

Additional observations from a re-analysis of the deposited data

Results flagged for a closer look

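In 2 of 96 groups of 5 mice examined, 1 liver lay farther from the others than Dixon's 95% critical value allows, and chance alone flags about 1 in 20 groups. Both were replicate 1 at 30 μg/kg. Its Rdh16 level was 207 CPM against 72.8 to 102 CPM in the other 4 livers, and its ratio of Rbp4 to Ttr was 0.860 against 1.39 to 1.66. This liver also lay nearest to vehicle in Bco1, Dhrs3 and on the first principal component, where its score was 81.7 against 129 to 147. In Aldh1a1 it lay farthest from vehicle instead, at 905 CPM against 989 to 1198 CPM in the other 4, and its ratio of Aldh1a7 to Aldh1a1 was the highest of the 5, at 0.306.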

How the results depend on the processing

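No paired analysis was possible because the replicate numbers follow accession order only and tie no mouse of one group to a mouse of another. Of 891 values recomputed under alternatives, 826 kept their side of the threshold or moved by less than the spread between mice. The number of the 9 genes past the test went from 0 to 1 at 3 μg/kg without a fold threshold, and from 3 at 10 μg/kg to 0 at a fold of at least 2 and to 1 in the second run alone. It was 3 to 4 at 10 and at 30 μg/kg when 1 library was left out. Scaling by total counts gave 4 pathway genes higher and 4 lower at 10 μg/kg, 10 higher at 30 μg/kg, and 5 endothelial markers called. Of all 15373 genes tested, 3736 passed at 10 μg/kg and 7961 at 30 μg/kg under that scaling. Without the 30 μg/kg group, 3 of the 9 had a dose trend, and the share of all genes in that fit is not given here. Changes that reversed were small or not called: at 10 μg/kg Adh1 -0.022 with run and order as covariate, and Aldh1a7 -0.0048 and Cyp26a1 -0.28 in the second run alone; at 30 μg/kg, under total counts, Adh1 0.48, Rdh16 0.10, Aldh1a7 0.36 and Cyp26a1 0.16. Adh1 at 30 μg/kg was also 0.012 without a filter and 0.045 with a mean of at least 50 counts, and Rdh16 0.15 in the first run alone. Dose slopes without the 30 μg/kg group were -0.0099 for Adh1, 0.012 for Aldh1a7 and 0.022 for Cyp26a1, and that of Rdh16 on a linear dose scale was -0.013; the cause was not tested.

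Leaving out 1 library at a time, log2 fold changes ran from -0.037 to 0.12 for Adh1 and from -0.32 to 0.44 for Cyp26a1 at 10 μg/kg, and from -0.066 to 0.029 for Adh1 at 30 μg/kg. The log2 difference of Aldh1a7 to Aldh1a1 ran from -0.058 to 0.13 at 0.03, 0.21 to 0.35 at 0.3, 0.16 to 0.29 at 1, 0.43 to 0.57 at 3, 0.73 to 0.89 at 10, 0.33 to 0.51 at 30 μg/kg, and that of Lrat to stellate markers from -0.20 to 0.23 at 0.3 and -0.17 to 0.23 at 10 μg/kg. Within runs, Aldh1a7 to Aldh1a1 was 0.038 in the second at 0.3 μg/kg, and Lrat to stellate markers 0.19 and -0.57 in the 2 runs at 0.1 μg/kg and -0.63 in the second at 3 μg/kg. With 5 mice a group, the spread of Cyp26a1 (SE 0.41 on the log2 scale) and the low counts of Lrat and Bco1 limit what could be detected, and exact tests of the ratios cannot go below p = 0.00794. The steps and slopes without replicate 1 at 30 μg/kg were added after seeing the data: the calls at the step from 10 to 30 μg/kg (Lrat, Bco1, Rdh16 and Dhrs3) were the same 4.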
